A study of Mus musculus with 5 samples.

Results

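The genes described here are the plasma membrane and lysosomal amino acid carriers of 7 mouse solute carrier families, Slc1, Slc3, Slc6, Slc7, Slc36, Slc38 and Slc43. Members were taken by symbol and kept where they had 20 or more counts over all barcodes. The families were chosen with earlier results of these data known. Of 22980 genes in the study's tables, 59 symbols matched and 46 were kept: 7 of 7 in Slc1, 2 of 2 in Slc3, 12 of 19 in Slc6, 11 of 14 in Slc7, 3 of 4 in Slc36, 9 of 10 in Slc38 and 2 of 3 in Slc43. The least counted members kept were Slc1a6 and Slc6a12 with 24 counts each and Slc36a3 with 25, and the most counted symbol left out was Slc43a1 with 19. Slc7a5, which encodes the widely studied carrier LAT1, had 3 counts and was also left out.

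The study profiled kidneys of C57BL/6 mice with 5 libraries, 1 per group. The first was nuclei from a kidney 14 days after UUO (unilateral ureteral obstruction, in which 1 ureter is tied and the kidney scars), run on the 10x platform. The other 4 were of healthy kidney: whole cells run by Drop-seq and nuclei run by sNucDrop-seq, DroNc-seq and 10x. Cell classes were those of the deposited annotation: PT (proximal tubule, split into S1-S2 and S3 in the healthy libraries), DL and AL (descending and ascending limbs of the loop of Henle), DCT (distal convoluted tubule), CNT (connecting tubule), PC (principal cells), IC (intercalated cells), Pod (podocytes), EC (endothelium), MC (mesangial cells), Mac (macrophages) and, in UUO, fibroblast labels, JGA, and the injured and dividing labels Dediff. PT and Prolif. PT. In UUO the DL class is the label for descending and thin ascending limb, and AL the label TAL (thick ascending limb). The healthy labels are LH(DL) and LH(AL), so DL and AL may not hold the same cells on both sides.

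The proximal tubule takes back nearly all filtered amino acids. Carriers in its brush border, most of them driven by sodium or by exchange, bring them into the cell, and carriers on the basolateral side release them to the blood. Several are pairs: the Slc3 proteins are heavy subunits that bring a light subunit of the Slc7 family to the membrane, rBAT (Slc3a1) with the cystine carrier Slc7a9 at the brush border, and 4F2hc (Slc3a2) with Slc7a7 or Slc7a8 on the basolateral side. The early segments S1 and S2 carry most of this traffic, and the straight segment S3 takes up what is left.

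Levels are summed counts of a class in a library as CPM (counts scaled to a common total of that sum), and the intervals are exact 95% intervals that cover counting error only. A member was called measured in a comparison where both libraries counted it and the sums compared held 20 or more counts, and called apart at 2-fold or more. With 1 library per group there is no replicate check and no test was made, so each difference is between these libraries. Barcodes numbered 6147 in UUO and 2084 to 3531 in the healthy libraries, with median depths of 1055 UMIs in UUO and 1143 to 1630 in the healthy libraries; 24 barcode sequences occurred in more than 1 library. UUO had 0.405 CPM of Xist and 619 CPM of 4 Y-linked genes. Healthy 10x had 1321 and 3.73 CPM and DroNc-seq 1309 and 8.70 CPM, whereas Drop-seq had 0 and 145 CPM and sNucDrop-seq 0 and 446 CPM. The labels give no sex, so UUO and the sex-linked difference cannot be told apart in the 10x comparison; sNucDrop-seq is the nucleus library that resembles UUO in these transcripts, and healthy 10x the one that shares its platform.

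Members were concentrated in the proximal tubule of healthy kidneys. By the mean CPM over the 3 healthy nucleus libraries, 16 of the 40 members with 20 or more counts there were highest in PT, against 8.09% of all 15023 genes ranked in the same way. These were the brush border carriers Slc1a1, Slc3a1, Slc6a18, Slc6a19, Slc7a9, Slc7a13 and Slc36a1, the basolateral exchangers Slc7a7 and Slc7a8, and Slc1a4, Slc6a4, Slc6a13, Slc6a15, Slc7a2, Slc7a12 and Slc38a3. Another 9 were highest in DL, 3 in EC, 3 in Mac, 2 each in AL, IC and Pod, and 1 each in CNT, MC and PC. The share of all genes was taken for PT only, so the counts for these other classes cannot be read as enrichment. Mac and MC had 3 and 16 barcodes in healthy 10x and were not ranked there, so their means cover sNucDrop-seq and DroNc-seq only. Of the 16 highest in PT, 9 led the ranked classes of all 4 healthy libraries: Slc1a1, Slc3a1, Slc6a13, Slc6a15, Slc6a18, Slc6a19, Slc7a7, Slc7a9 and Slc36a1. In Drop-seq only 4 classes, PT, AL, DCT and CNT, had enough barcodes to be ranked. Each of the 9 was higher there in some class left out, such as Slc1a1 at 468 CPM in 16 DL barcodes and 338 CPM in PT. Of the others, Slc38a3 led in 1 of the 3 libraries where it was ranked. Slc6a4 and Slc7a12 led in 2 of 4, Slc1a4 and Slc7a8 in 3 of 4, and Slc7a2 and Slc7a13 in 2 of 2.

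**Figure D1:**
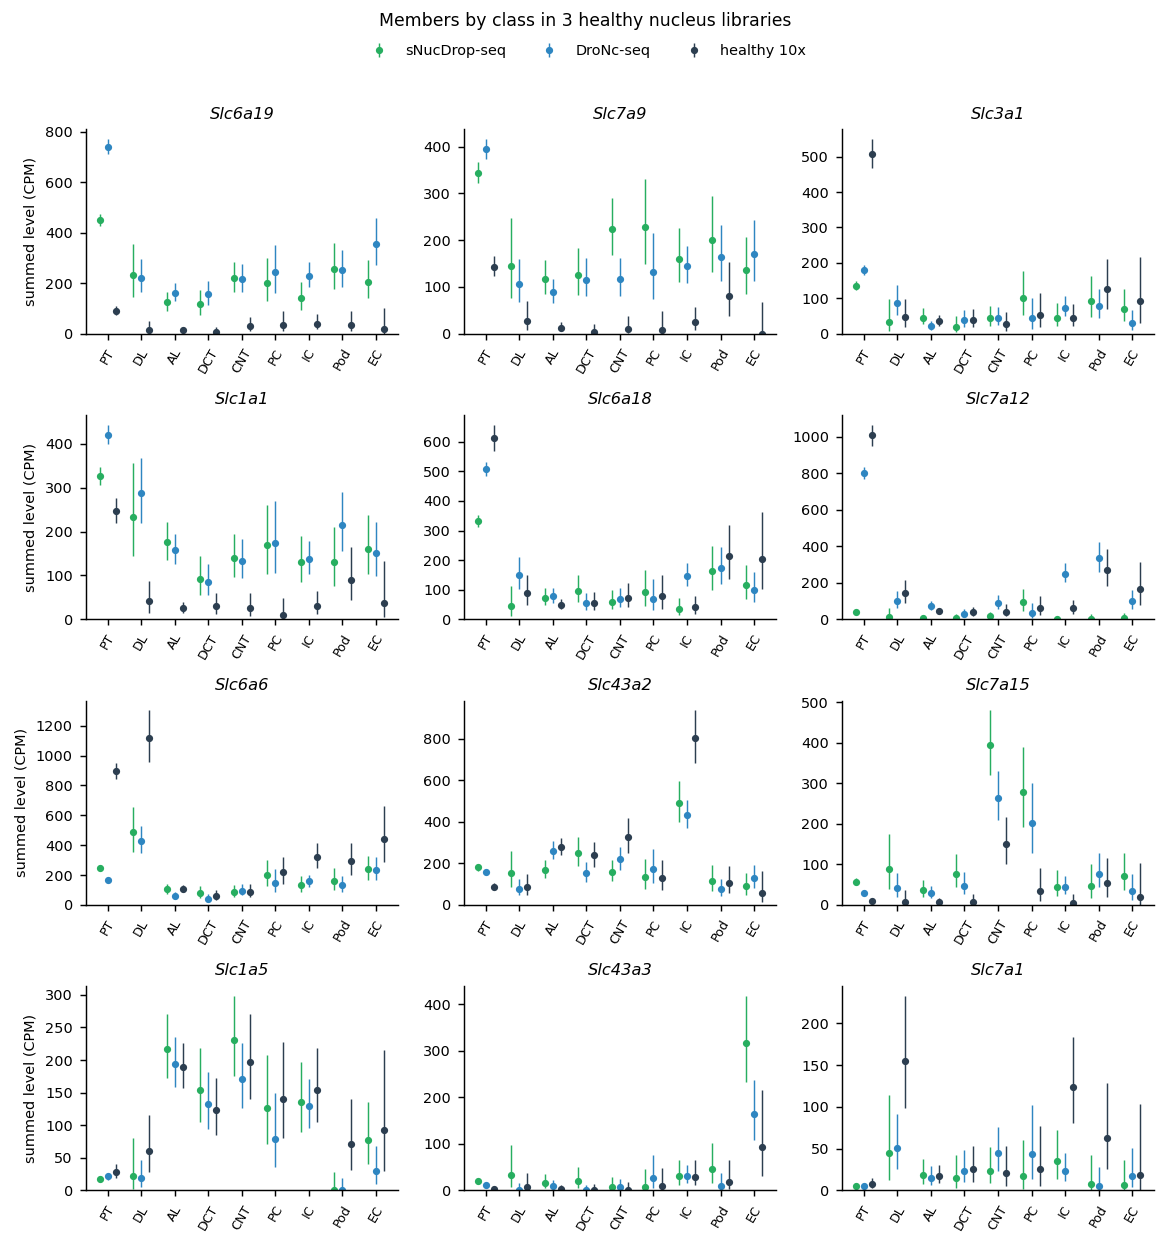
Summed level in CPM (y axis, from 0) of 12 members in 9 classes (x axis) of the healthy sNucDrop-seq, DroNc-seq and 10x nuclei; points are class sums and bars are exact 95% Poisson intervals. Slc6a19, Slc7a9, Slc3a1, Slc1a1 and Slc6a18 stand highest in PT, Slc6a6 in DL, Slc43a2 in IC, Slc7a15 in CNT and Slc43a3 in EC.

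Slc6a19 encodes B0AT1, the main sodium-driven carrier of neutral amino acids. It was at 449 CPM in PT of sNucDrop-seq, 741 CPM in DroNc-seq and 89.3 CPM in healthy 10x. Slc3a1 ran the other way between platforms, at 136, 179 and 508 CPM in the same order, and its partner Slc7a9 was at 344, 394 and 143 CPM. The order of libraries was therefore not shared by members of the same segment. Low levels of PT members outside PT carry little weight: the 4 PT marker genes Lrp2, Cubn, Slc34a1 and Hnf4a summed outside PT to 10.0% of their PT level in UUO and 9.27% in healthy 10x, and to 28.2% (Drop-seq), 40.8% (sNucDrop-seq) and 32.0% (DroNc-seq) elsewhere.

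Outside PT the clearest places were those of Slc43a2, Slc6a6, Slc7a15, Slc1a5 and Slc43a3. Slc43a2 (LAT4, a facilitated carrier of branched-chain amino acids) was highest in IC, at 491 CPM in sNucDrop-seq, 434 CPM in DroNc-seq and 805 CPM in healthy 10x. Within IC it was at 607, 567 and 1048 CPM in type A and 438, 357 and 630 CPM in type B cells of these libraries, with log2 ratios of 0.47 (-0.16 to 1.08), 0.67 (0.21 to 1.12) and 0.73 (0.27 to 1.20). Type A was thus the higher in each, beyond the counting interval in the last 2.

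Slc6a6, the taurine carrier that helps medullary cells hold osmolytes, was highest in DL, at 489 CPM in sNucDrop-seq, 431 CPM in DroNc-seq and 1120 CPM in healthy 10x. In healthy 10x the S3 label of PT was higher still, at 1474 CPM, with 405 CPM in S1-S2, so DL leads there only over PT as a whole. The DL class is weakly supported in DroNc-seq, where its 4 marker genes summed to 23.1 CPM in DL and 46.7 CPM in EC. Slc7a15 was highest in CNT in each nucleus library, at 394 CPM in sNucDrop-seq, 264 CPM in DroNc-seq and 151 CPM in healthy 10x, and PC came next at 278, 201 and 35.1 CPM. In Drop-seq CNT was at 91.6 CPM and the 37 PC barcodes, too few to be ranked, at 99.7 CPM.

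Slc1a5 (ASCT2, an exchanger of glutamine and small neutral amino acids) was a distal gene. It was at 218, 194 and 189 CPM in AL and 231, 171 and 197 CPM in CNT of sNucDrop-seq, DroNc-seq and healthy 10x, and at 17.0, 21.4 and 28.6 CPM in PT. The intervals of AL and CNT overlapped in each library, so their order is not resolved, while PT lay below both in each. Slc43a3, a family member known for purine nucleobase uptake, was at 316, 163 and 92.4 CPM in EC.

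Among the other members, Slc7a1 (CAT1, the general arginine and lysine carrier) was highest in DL, with a mean of 83.5 CPM, and was at 6.19 CPM in PT. The heteromeric exchanger Slc7a6 led in DL by the mean through healthy 10x, at 87.7 CPM, with 11.1 CPM in sNucDrop-seq and 9.26 CPM in DroNc-seq, and its PT mean was 3.24 CPM. The glutamate carriers Slc1a2 and Slc1a3 had their highest means in DL, at 26.9 and 74.7 CPM (DL led in 1 and 2 of 3 libraries), and so did the creatine carrier Slc6a8 at 39.3 CPM, next to 37.7 CPM in PT. Slc6a17 was highest in AL at 54.0 CPM. Slc38a2, Slc38a6, Slc38a9, Slc38a10 and Slc3a2 were spread over the nephron, the highest class mean of each lying below 200 CPM and within 5-fold of its PT mean. The remaining members were Slc1a7, Slc6a12 (the betaine carrier) and Slc38a7, highest in DL, Slc38a1 in Mac, Slc36a4 and Slc38a4 in Pod, Slc6a9 (a glycine carrier) in IC and Slc38a11 in MC. Slc1a7 and Slc6a12 had only 20 and 22 counts in the healthy nuclei. In healthy 10x, where Mac and MC were not ranked, Slc38a1 was highest in AL at 52.3 CPM. Slc38a11 was at 31.2 CPM in PT there, with a median of 0 over the 9 ranked classes. Slc1a6, Slc7a4, Slc7a11 and Slc36a3 had 4 to 18 counts in the healthy nuclei and were not ranked, and Slc6a5, a glycine carrier, had 29 counts in Drop-seq and 0 in the healthy nuclei.

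The segment split was next examined within each healthy library, where S3 and S1-S2 share their platform. The number of animals in each library is not given. The labels are the authors' and were given to clusters of these libraries, so the differences describe the clusters. Marker genes followed the labels: all 4 S1-S2 markers were lower in S3 in each library, and all 4 S3 markers were higher there, except in healthy 10x with 3 of 4.

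In S3, Slc7a12 and Slc6a18 were 2-fold or more above S1-S2 in every library, and Slc6a19, Slc7a7, Slc7a8 and Slc43a2 were 2-fold or more below. These were 2 and 4 of the 25 members measured in 3 or more libraries, where 0.618% of all genes were that much higher and 0.546% that much lower. Library by library, members 2-fold higher and lower numbered 4 and 6 of 27 in Drop-seq (3.49% and 3.14% of all genes), 6 and 5 of 28 in sNucDrop-seq (4.48% and 4.01%), 6 and 6 of 28 in DroNc-seq (7.31% and 5.2%) and 6 and 6 of 25 in healthy 10x (6.14% and 9.59%). The medians of the measured members lay between -0.07 and 0.04 and those of all genes between -0.13 and 0.05, with members on both sides.

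**Figure D2:**
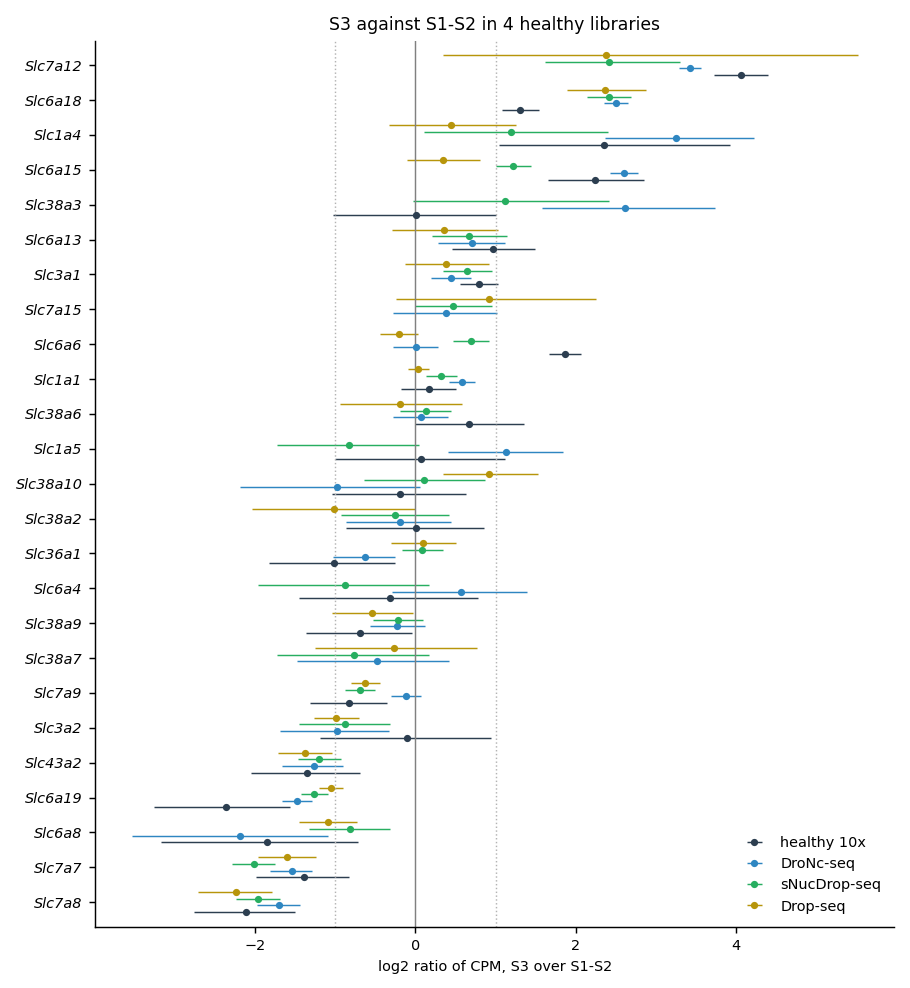
Log2 ratio of CPM in S3 over S1-S2 (x axis) for the 25 members measured in 3 or more of 4 healthy libraries (y axis, ordered by median); bars are exact 95% intervals for counting error and dotted lines mark 2-fold. Slc7a12 and Slc6a18 lie right of the upper dotted line in every library, and Slc43a2, Slc6a19, Slc7a7 and Slc7a8 left of the lower one.

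A pair of brush border carriers of neutral amino acids that are neighbours on chromosome 13, with 1721 bases between them, took opposite sides. Slc6a18 (B0AT3) was at 102 CPM in S3 and 19.8 CPM in S1-S2 of Drop-seq, 522 and 98.2 CPM in sNucDrop-seq, 1295 and 228 CPM in DroNc-seq, and 904 and 364 CPM in healthy 10x. Slc6a19 was at 181 CPM in S3 and 374 CPM in S1-S2 of Drop-seq, 276 and 660 CPM in sNucDrop-seq, 320 and 890 CPM in DroNc-seq, and 27.5 and 142 CPM in healthy 10x. The log2 ratios were 1.31 or more for Slc6a18 and -1.05 or less for Slc6a19, all 8 intervals clear of 0. An antisense gene, Slc6a19os, overlaps Slc6a19, and without a stated use of strand its reads cannot be told apart from those of Slc6a19. The same holds for other members, among them Slc3a1, overlapped by Prepl, and Slc7a7, overlapped by Oxa1l, each on the other strand.

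The basolateral exchangers were early segment genes. Slc7a8 (LAT2, for neutral amino acids) was at 14.5 CPM in S3 and 68.3 CPM in S1-S2 of Drop-seq, 93.4 and 364 CPM in sNucDrop-seq, 149 and 484 CPM in DroNc-seq, and 49.5 and 213 CPM in healthy 10x. Slc7a7 (y+LAT1, for dibasic amino acids) had log2 ratios of -2.02 to -1.39. Their heavy chain Slc3a2 was lower in S3 by a smaller margin, at -0.99 to -0.10, with the interval below 0 in 3 of 4 libraries. The apical pair was split: Slc3a1 was higher in S3 in each library (log2 0.38 to 0.79, interval above 0 in 3 of 4) and Slc7a9 lower in each (-0.83 to -0.11, interval below 0 in 3 of 4), none of the 8 ratios reaching 2-fold.

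Other members with a segment side were Slc43a2 (-1.37 to -1.20), the creatine carrier Slc6a8 (-2.19 to -0.82) and Slc7a2, an arginine carrier measured in 2 libraries (-1.96 in sNucDrop-seq and -1.12 in DroNc-seq). On the S3 side, Slc6a15 (B0AT2, for branched-chain amino acids and proline) and Slc1a4 (ASCT1, for serine and alanine) passed 2-fold in the 3 nucleus libraries and not in Drop-seq. For Slc6a15 the log2 ratio was 0.34 in whole cells and 1.22 (sNucDrop-seq), 2.60 (DroNc-seq) and 2.24 (healthy 10x) in nuclei, and for Slc1a4 it was 0.44 in whole cells and 1.19, 3.25 and 2.35 in nuclei. In Drop-seq both intervals reached 0, and both were above 0 in each nucleus library. Slc6a6 differed between libraries, at -0.21 (Drop-seq), 0.69 (sNucDrop-seq), 0.01 (DroNc-seq) and 1.87 (healthy 10x). Slc38a11 was measured in healthy 10x only, with 35 counts in S3 and 2 in S1-S2 (log2 4.37, 2.41 to 7.47), the 35 lying in 32 nuclei.

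Slc7a12 (Asc-2, for neutral amino acids) and Slc7a13 (AGT1, a carrier of cystine, aspartate and glutamate that pairs with rBAT in S3) were S3 genes whose levels between libraries were near mirror images. Slc7a12 was at 318 CPM in S3 of UUO, 5.16 CPM in Drop-seq, 61.9 CPM in sNucDrop-seq, 2424 CPM in DroNc-seq and 2047 CPM in healthy 10x. Slc7a13 was at 80.1 CPM in S3 of UUO, 843 CPM in Drop-seq, 1084 CPM in sNucDrop-seq and 5.77 CPM in DroNc-seq, and was listed at 0 in healthy 10x. Slc7a12 was high in S3 of the 2 libraries with Xist and Slc7a13 in the 2 healthy libraries with Y-linked transcripts.

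S3 exceeded S1-S2 wherever both could be compared. For Slc7a12 the log2 ratio was 2.38 with 20 and 2 counts in Drop-seq, then 2.41 (sNucDrop-seq), 3.43 (DroNc-seq) and 4.06 (healthy 10x). Slc7a13 had 1.60 in Drop-seq and 1.87 in sNucDrop-seq; DroNc-seq held 5 and 8 counts, too few to be measured. In UUO, Slc7a12 was at 318 CPM in S3, against 7.77 CPM in S2 and 2.56 CPM in S1, and Slc7a13 at 80.1 CPM, against 9.71 and 2.56 CPM. The 2 genes lie on different chromosomes and share no stretch of 40 bases in their annotated transcripts. The part of sex, animal and platform in this pattern was not tested.

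**Figure D3:**
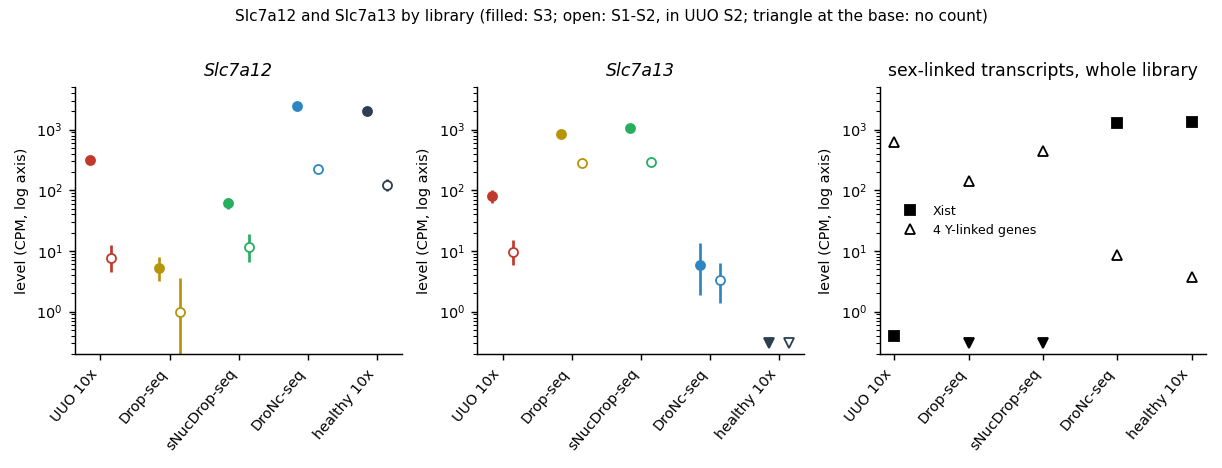
Level in CPM on a log axis of Slc7a12 (left) and Slc7a13 (middle) in S3 (filled) and S1-S2 (open; S2 in UUO) of the 5 libraries, with exact 95% Poisson intervals, and of Xist (squares) and 4 Y-linked genes (triangles) over each whole library (right); downward triangles at the base mark no count. Slc7a12 is at 2424 and 2047 CPM in S3 of DroNc-seq and healthy 10x, the 2 libraries with Xist, where Slc7a13 has 0 to 5.77 CPM.

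After obstruction amino acid carriers made up a smaller share of proximal tubule transcripts. All 46 members together made up 1429 CPM (1391 to 1469) of PT in UUO, against 4690 CPM (4568 to 4815) in healthy 10x, 4373 CPM in sNucDrop-seq and 5285 CPM in DroNc-seq. Slc7 members summed to 313 CPM in UUO, against 1436, 1647 and 2051 CPM, and Slc6 members to 482 CPM, against 1935, 1471 and 1924 CPM. Slc38 members, in contrast, summed to 286 CPM in UUO, against 312, 326 and 326 CPM. Single members made up much of the Slc7 and Slc6 sums. Slc7a12 was at 1006 CPM in healthy 10x and 800 CPM in DroNc-seq, and Slc7a13 at 730 CPM in sNucDrop-seq. Slc6a6 was at 896 CPM in healthy 10x. The size of the fall in these 2 families therefore rests partly on members whose levels differed between the healthy libraries. The 4 PT marker genes were also lower in PT of UUO, with a sum of 877 CPM. They summed to 13153 CPM in healthy 10x, 7008 CPM in sNucDrop-seq and 6447 CPM in DroNc-seq. A link between the carriers and these markers was not tested. The S3 label held 20.1% of PT nuclei in UUO, 35.9% in healthy 10x, 48.5% in sNucDrop-seq and 18.3% in DroNc-seq.

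Of the 46 members, 33 were measured between UUO and healthy 10x, of which 16 were 2-fold or more lower (15 with an interval clear of 0) and 3 were 2-fold or more higher, where 20.7% of all 11395 measured genes were that much lower and 14.6% that much higher. The members' median log2 ratio was -0.90, next to -0.10 for all genes. With sNucDrop-seq on the healthy side 18 of 34 were lower and 5 higher (33.5% and 20% of genes), and with DroNc-seq 17 of 35 were lower and 7 higher (29.7% and 19.8%). These 3 comparisons share the UUO library, so the values of each are set side by side below and do not repeat each other independently.

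**Figure D4:**
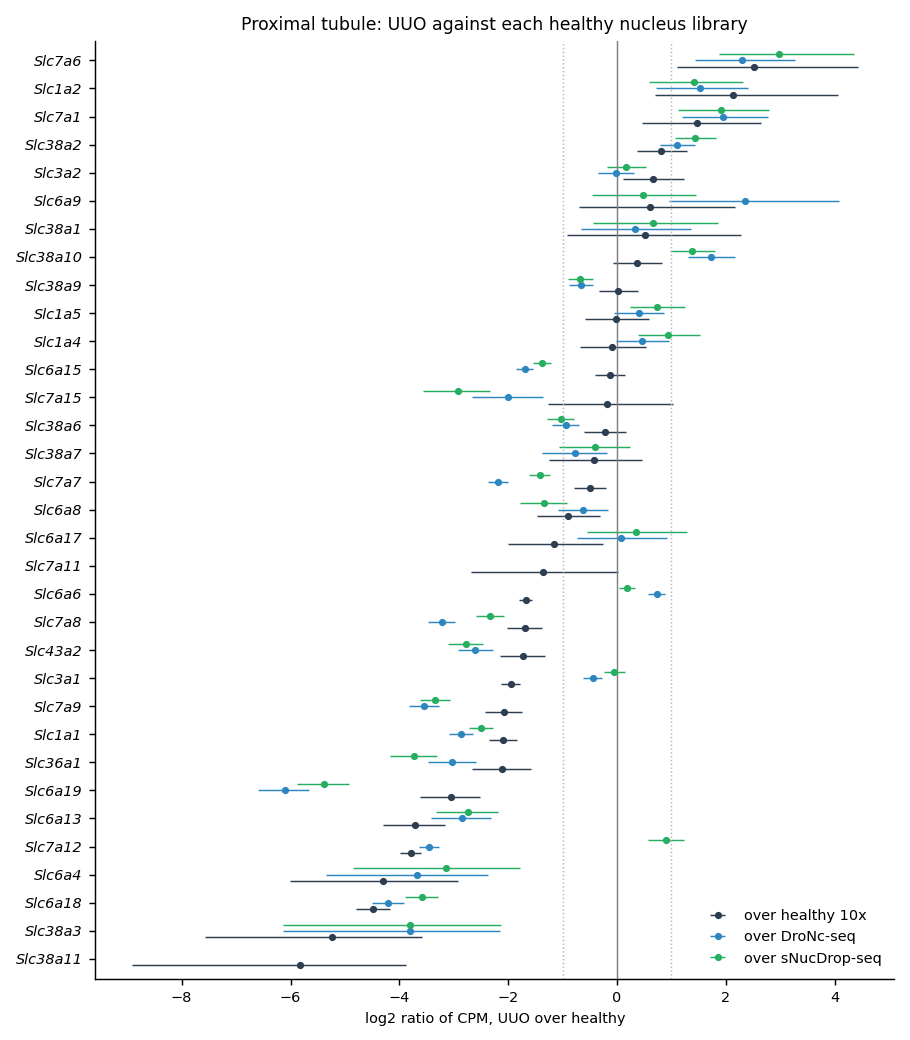
Log2 ratio of CPM in PT, UUO over each healthy nucleus library (x axis), for the 33 members measured against healthy 10x (y axis); bars are exact 95% intervals for counting error and dotted lines mark 2-fold. Slc6a18, Slc6a13, Slc6a19, Slc36a1, Slc1a1 and Slc7a9 lie left of the lower dotted line against each library, while Slc3a1, Slc6a6 and Slc7a12 change place with the healthy library chosen.

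Carriers of the brush border were lower. Slc6a18 was at 27.5 CPM in UUO, against 612 CPM in healthy 10x, 332 CPM in sNucDrop-seq and 507 CPM in DroNc-seq (log2 -4.48, -3.59 and -4.20). Slc6a19 was at 10.7 CPM in UUO, against 89.3, 449 and 741 CPM in the same order (-3.06, -5.39 and -6.11). In both genes UUO lay below each healthy library by more than the counting intervals. Within UUO the residue of Slc6a19 was in S1, at 64.0 CPM, against 4.85 CPM in S2 and 5.17 CPM in S3.

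Slc7a9, the light chain of the cystine carrier, was at 33.8 CPM in UUO, against 143, 344 and 394 CPM (log2 -2.08, -3.35 and -3.54). Its heavy chain Slc3a1 was at 131 CPM in UUO, against 508 CPM in healthy 10x, 136 CPM in sNucDrop-seq and 179 CPM in DroNc-seq (-1.95, -0.05 and -0.45). The fall of Slc3a1 was thus present against the library of the same platform and absent or under 1.5-fold against the other 2. Reads of Prepl, which overlaps Slc3a1 on the other strand, cannot be told apart from its own. The glutamate and aspartate carrier Slc1a1 (-2.09, -2.49 and -2.86) and the proton-coupled Slc36a1 (-2.12, -3.73 and -3.03) were lower against each.

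Basolateral and other carriers of the segment were also lower, among them the members with the largest ratios, Slc38a11 and Slc38a3, on few counts. Slc7a8 was at 42.6 CPM in UUO, against 138, 215 and 396 CPM (log2 -1.70, -2.33 and -3.22), and Slc43a2 at 26.4 CPM, against 87.6, 181 and 160 CPM (-1.73, -2.77 and -2.60). Slc7a7 was at 85.3 CPM, against 120, 229 and 388 CPM (-0.50, -1.42 and -2.19), and so passed 2-fold against 2 of the 3. Slc6a13 (GAT2, for GABA and taurine) fell by 3.71, 2.74 and 2.84 on the log2 scale. Slc38a3 (SNAT3, the glutamine carrier of ammonia production) had 3 counts in UUO and 37, 33 and 38 in the healthy libraries (log2 -5.24, with an interval of -7.58 to -3.58, against healthy 10x), and Slc6a4, the serotonin carrier, 5 counts in UUO and 32, 35 and 58. Slc38a11 had 2 counts in UUO and 37, 7 and 16 in the healthy libraries (-5.82, -8.92 to -3.87, against healthy 10x). Slc6a17 was lower against healthy 10x (-1.15) and not against the other 2 (0.35 and 0.08), and Slc7a11, the cystine and glutamate exchanger, had 12 and 10 counts in UUO and healthy 10x, with an interval that reached 0.

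Slc7a12 and Slc7a13 gave opposite answers with different healthy libraries. Over the whole of PT, Slc7a12 was at 72.9 CPM in UUO, against 1006 CPM in healthy 10x, 39.3 CPM in sNucDrop-seq and 800 CPM in DroNc-seq (log2 -3.79, 0.89 and -3.46). Within S3 labels it was at 318 CPM in UUO and 61.9 CPM in sNucDrop-seq (2.36, 2.02 to 2.71), the 246 UUO counts lying in 121 of 473 nuclei. Slc7a13 in S3 was at 80.1 CPM in UUO and 1084 CPM in sNucDrop-seq (-3.76, -4.15 to -3.39), and 5.77 CPM in DroNc-seq. Against the library that resembles UUO in sex-linked transcripts, then, Slc7a12 was higher and Slc7a13 lower. Slc6a6 also turned, at 280 CPM in UUO, against 896 CPM in healthy 10x, 246 CPM in sNucDrop-seq and 169 CPM in DroNc-seq (-1.68, 0.18 and 0.73).

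Slc6a15 depended on the segment. Within S3 labels it was lower in UUO, at 107 CPM, against 227 CPM in healthy 10x, 417 CPM in sNucDrop-seq and 1007 CPM in DroNc-seq. Within S1-S2 labels it was at 122 CPM in UUO, against 48.3, 179 and 166 CPM, higher than healthy 10x and lower than the others. UUO S1, S2 and S3 had 74.2, 131 and 107 CPM, so the S3 excess of the healthy libraries was not seen there.

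The 3 members that were higher, Slc7a1, Slc7a6 and Slc1a2, were all low in healthy PT. Slc7a1 was at 20.9 CPM in UUO, against 7.58, 5.56 and 5.43 CPM in healthy 10x, sNucDrop-seq and DroNc-seq (log2 1.46, 1.91 and 1.94), its 76 counts lying in 70 nuclei. Slc7a6 was at 19.3 CPM, against 3.37, 2.43 and 3.92 CPM (2.52, 2.98 and 2.29). Slc1a2 (GLT-1, a glutamate carrier) was at 14.9 CPM, against 3.37, 5.56 and 5.13 CPM (2.14, 1.42 and 1.53). The levels were low, with 4 to 18 counts on the healthy side, and the intervals were clear of 0 in all 9 ratios. Slc38a2 (SNAT2, a sodium-driven carrier known to be raised by amino acid shortage) stood at 74.0 CPM in UUO, against 42.1, 27.5 and 34.4 CPM (0.81, 1.43 and 1.10), and Slc38a10 at 58.9 CPM, against 45.5, 22.6 and 17.8 CPM. Values for Slc1a4, Slc1a5, Slc38a1, Slc38a6, Slc38a7, Slc38a9, Slc3a2, Slc6a8, Slc6a9 and Slc7a15 lay within 2-fold of healthy 10x. Some of these passed 2-fold against another healthy library. Slc7a15 was at 7.43 CPM in UUO, against 56.3 CPM in sNucDrop-seq and 29.6 CPM in DroNc-seq. Slc6a8 was at 18.98 CPM in UUO and 48.3 CPM in sNucDrop-seq, and Slc38a6 at 57.5 and 118 CPM. Slc6a9 went the other way, at 7.70 CPM in UUO and 1.51 CPM in DroNc-seq.

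The promoters of both carriers of the cystine pair and of the arginine carriers Slc7a1 and Slc7a6 are shown because their transcripts moved in different directions. They are from RefSeq (GRCm38.p6), each with 250 bases before and 50 after a gene start, on the gene's own strand, with CG pairs in capitals. Slc3a1 is chr17:85028097-85028396 (plus strand), Slc7a9 chr7:35448842-35449141 (plus), Slc7a1 chr5:148399855-148400154 (minus) and Slc7a6 chr8:106168604-106168903 (plus).
Slc3a1: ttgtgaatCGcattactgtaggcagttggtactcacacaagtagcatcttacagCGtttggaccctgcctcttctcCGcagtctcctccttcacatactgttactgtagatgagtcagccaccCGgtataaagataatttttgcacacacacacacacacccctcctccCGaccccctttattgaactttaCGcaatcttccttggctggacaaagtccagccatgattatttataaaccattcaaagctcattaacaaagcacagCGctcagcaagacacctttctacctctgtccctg
Slc7a9: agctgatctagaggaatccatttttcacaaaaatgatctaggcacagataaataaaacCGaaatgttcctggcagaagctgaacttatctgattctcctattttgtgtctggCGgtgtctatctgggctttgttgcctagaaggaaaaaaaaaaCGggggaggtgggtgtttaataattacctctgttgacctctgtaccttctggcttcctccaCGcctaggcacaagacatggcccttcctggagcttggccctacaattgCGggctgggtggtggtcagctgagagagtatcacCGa
Slc7a1: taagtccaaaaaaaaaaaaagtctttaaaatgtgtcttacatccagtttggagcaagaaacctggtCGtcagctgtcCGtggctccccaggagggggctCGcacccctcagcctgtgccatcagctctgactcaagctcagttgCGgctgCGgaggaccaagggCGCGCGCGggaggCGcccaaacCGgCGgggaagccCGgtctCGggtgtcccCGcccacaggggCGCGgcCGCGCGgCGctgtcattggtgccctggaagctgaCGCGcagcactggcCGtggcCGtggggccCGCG
Slc7a6: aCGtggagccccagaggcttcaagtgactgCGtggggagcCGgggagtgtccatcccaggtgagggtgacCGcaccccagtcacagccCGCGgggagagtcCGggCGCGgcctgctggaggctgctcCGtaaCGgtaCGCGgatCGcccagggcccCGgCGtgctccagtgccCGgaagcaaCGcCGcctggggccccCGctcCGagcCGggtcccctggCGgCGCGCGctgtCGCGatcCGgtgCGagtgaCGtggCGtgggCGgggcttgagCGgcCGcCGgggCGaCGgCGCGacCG
Slc3a1 and Slc7a9 hold 7 and 6 CG pairs, and Slc7a1 and Slc7a6 hold 27 and 41, next to a median of 7 over the promoters of 27025 genes. This contrast did not extend to the families: Slc1a1 and Slc7a8, which also fell in PT, hold 32 and 20, and the median was 13 over 10 members highest in PT and 16 over 19 members highest elsewhere. The letters CAAAGTCCA, a form of the site of HNF4, occur in Slc3a1 from 39 bases before its start and, searched on both strands, in 0.555% of all promoters. GTTAATNAT, a form of the HNF1 half-site, was in 0 of the 33 member promoters in the table and in 0.94% of all, and TGATGNAA, the amino acid response element, was in those of Slc1a4, Slc7a7 and Slc7a11 and in 4.51% of all.

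Genes around the carriers were read from 8 lists in PT of UUO and healthy 10x, where 20.7% of all measured genes were 2-fold or more lower and 14.6% higher. All 9 measured genes of creatine, betaine and proline metabolism were 2-fold or more lower (median log2 -2.96), among them Gatm, which makes the creatine precursor (-2.96), and the tyrosine enzyme Hgd (-4.52). Of 7 measured genes of glutamine and ammonia metabolism 5 were lower and 1 higher: Pck1, of gluconeogenesis, was at 9.08 CPM in UUO and 579 CPM in healthy 10x (-6.00). Of 10 measured glutathione genes 4 were lower and 0 higher, led by the brush border enzymes Ggt1 (-3.89) and Anpep (-3.82). Of 9 other amino acid and peptide carriers 5 were lower and 0 higher, with the peptide carrier Slc15a2 at 22.6 and 216 CPM (-3.26).

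Lists of amino acid stress and sensing had members on both sides. Of 18 measured amino acid response genes 4 were higher and 2 lower (median 0.42); against sNucDrop-seq 8 of 22 were higher and 7 lower (median -0.32) and against DroNc-seq 6 of 21 and 5 (0.22), so the sign of the median changed with the healthy library. Against healthy 10x, Nupr1 was at 42.9 CPM in UUO and 10.9 CPM in healthy 10x (1.97) and the cysteine-making enzyme Cth at 13.8 and 152 CPM (-3.46). Of 15 genes of amino acid sensing to mTORC1 2 were higher, the GTPase genes Rragc (1.59) and Rragd (1.43), and 4 lower, among them Mtor itself (-2.14), shares near those of all genes; the median was -0.24, and -0.03 and 0.38 against sNucDrop-seq and DroNc-seq. In the tonicity list 2 of 5 were higher, Nfat5, the osmotic regulator of Slc6a6 (884 and 258 CPM, 1.78), and the sorbitol-making Akr1b3 (61 and 3 counts, 2.73, 1.12 to 5.05), and 2 lower, Aqp2 and Slc14a2, genes of collecting duct and medulla. Tmem27, a partner gene of Slc6a18 and Slc6a19, was under 2-fold lower (-0.89), and it was 2-fold or more lower against sNucDrop-seq and against DroNc-seq.

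Outside PT, Slc43a2, Slc1a5 and Slc7a8 were lower in several distal classes of UUO and Slc7a1 was higher, while Slc7a15 in CNT was at 130 CPM in UUO and 151 CPM in healthy 10x (log2 -0.21, -0.84 to 0.46; -1.60 against sNucDrop-seq and -1.02 against DroNc-seq). Identity markers were lower there: the 4 AL markers summed to 1423 CPM in AL of UUO and 21307 CPM in healthy 10x, the 3 CNT markers to 1368 and 39970 CPM in CNT, and the 4 PC markers to 325 and 6398 CPM in PC. Members 2-fold lower and higher numbered 9 and 2 of 20 in AL (17.2% and 16% of all genes), 3 and 0 of 10 in DL (13.5% and 12.5%), 4 and 3 of 15 in DCT (14.4% and 20.9%) and 3 and 2 of 11 in CNT (13.2% and 24.9%). They numbered 3 and 2 of 10 in PC (13.3% and 21.4%), 4 and 0 of 11 in IC (12.4% and 16%), 2 and 1 of 5 in Pod (15.9% and 12.7%) and 1 and 1 of 6 in EC (11.7% and 21.6%). In Pod and EC the counts are too few to be set against the background.

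Slc43a2 was lower in each distal class. In IC, its highest class, it was at 184 CPM in UUO, against 805 CPM in healthy 10x, 491 CPM in sNucDrop-seq and 434 CPM in DroNc-seq (log2 -2.13, -1.41 and -1.24). It was at 59.6 CPM in AL of UUO and 278 CPM of healthy 10x (-2.22), 74.1 and 238 CPM in DCT (-1.69), 45.7 and 327 CPM in CNT (-2.84), and 15.8 and 131 CPM in PC (-3.06). With the fall in PT, Slc43a2 was 2-fold or more lower in all 6 classes where it was measured.

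Slc1a5 was lower in AL, at 51.3 CPM in UUO and 189 CPM in healthy 10x (log2 -1.88), in DCT at 46.3 and 123 CPM (-1.41), in CNT at 38.9 and 197 CPM (-2.34) and in IC at 30.1 and 154 CPM (-2.36). In PT, where it was low in healthy 10x, it was at 28.3 and 28.6 CPM (-0.01). These 4 classes and PT of UUO therefore lay within 2-fold of each other, from 28.3 to 51.3 CPM. Slc7a8 was lower in AL (-1.54), CNT (-1.17), IC (-1.46) and PC (-1.96).

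**Figure D5:**
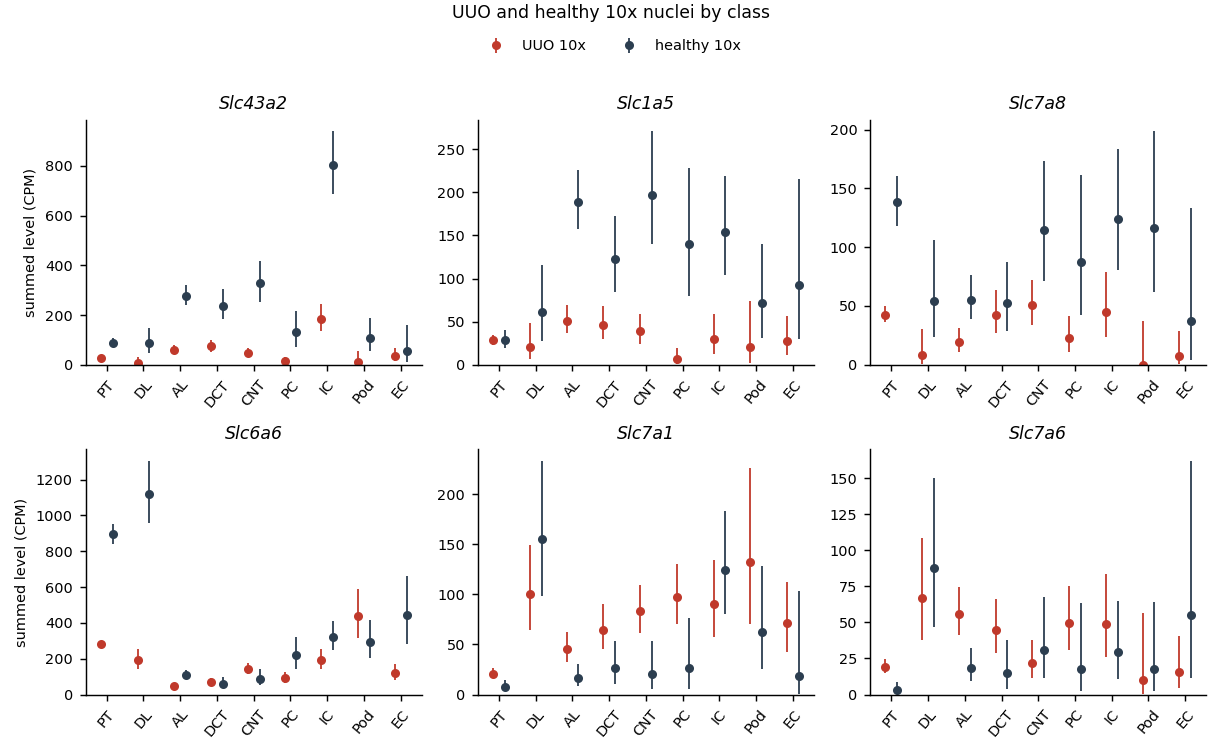
Summed level in CPM (y axis, from 0) of 6 members by class (x axis) in UUO (red, left) and healthy 10x nuclei (dark, right), with exact 95% Poisson intervals. Slc43a2 and Slc1a5 are lower in UUO in AL, DCT, CNT and IC, and Slc7a1 is higher in UUO in PT, AL, DCT, CNT and PC and not in DL or IC.

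Slc7a1 was higher in AL, at 45.3 CPM in UUO and 16.9 CPM in healthy 10x (log2 1.42), in DCT at 64.8 and 26.1 CPM (1.31), in CNT at 82.9 and 20.8 CPM (2.00) and in PC at 97.0 and 26.3 CPM (43 and 3 counts, 1.88, 0.24 to 4.22). In DL and IC, its highest classes in healthy 10x, it was at 100 and 155 CPM and at 90.2 and 124 CPM, with intervals that held 0. Slc7a6 was higher in AL, at 56.0 and 18.5 CPM (1.60), and in DCT, at 44.5 and 14.9 CPM (1.58), and Slc7a15 in DCT, with 27 and 2 counts (2.75, 0.75 to 5.86). Against sNucDrop-seq and DroNc-seq the rise of Slc7a15 did not hold, at -0.63 and 0.07. Slc7a6 in DCT was at 43.4 CPM in sNucDrop-seq and 6.80 CPM in DroNc-seq, so its rise was absent against sNucDrop-seq.

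In the DL class, which in UUO also takes in thin ascending limb, the taurine carrier Slc6a6 was lower, at 192 CPM in UUO and 1120 CPM in healthy 10x (log2 -2.55), against 489 CPM in sNucDrop-seq (-1.35) and 431 CPM in DroNc-seq (-1.17). It was also lower than healthy 10x in EC (-1.91), PC (-1.28) and AL (-1.21), and in Pod, CNT and DCT its intervals held 0. Slc1a3 was lower in DL (6 and 21 counts, 5.66-fold) and in AL (-1.37), and Slc6a17 in AL (-1.46). PT members read outside PT followed PT itself: Slc1a1 and Slc6a18 were lower in AL (-1.78 and -3.37) and Slc6a18 in DCT (-2.33). Slc7a12 had 1 count in each of AL, DL and Pod of UUO and 28, 21 and 30 in healthy 10x (-5.18, -10.53 to -2.58; -5.09, -10.46 to -2.45; -4.72, -10.07 to -2.13). In Pod, Slc6a18 had 0 and 24 counts, at least 7.01-fold lower with the floor of 3 counts. PT markers outside PT stood at 10.0% of their PT level in UUO and 9.27% in healthy 10x, and the part of free RNA in these values was not tested.

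Among the fibroblast labels, present in UUO only, Slc6a6 and Slc7a2 differed between Fib.1 and Fib.2. Slc6a6 was at 1071 CPM in the 68 nuclei labelled Fib.2 and 126 CPM in the 330 labelled Fib.1. Slc7a2 was at 89.7 CPM in Fib.1 and 8.57 CPM in Fib.2 (25 and 1 counts), next to 2.75 CPM in PT of UUO. Slc7a2 was listed at 0 in healthy 10x, so no ratio is given.

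Within UUO, the injured label Dediff. PT (117 nuclei) was set against the S1 to S3 labels (2154 nuclei) of the same library. Dediff. PT had 2102 CPM of the 4 injury markers Havcr1, Vcam1, Krt20 and Sox9, and S1, S2 and S3 had 625, 1043 and 885 CPM. Of 30 members measured, 4 were 2-fold or more higher and 5 lower, where 5.01% of all genes were higher and 9.69% lower, and only 1 and 3 of these had an interval clear of 0. Slc1a2 was higher, at 51.4 CPM in Dediff. PT and 13.3 CPM in S1 to S3 (log2 1.95, 0.79 to 2.96; 10 counts in 9 nuclei). Slc1a1 was lower, at 15.4 and 63.0 CPM (3 and 203 counts, -2.03, -4.32 to -0.46), as were Slc7a12 with 1 and 263 counts (-3.99, -9.30 to -1.50) and Slc6a18 with 1 and 95 counts (-2.52, -7.84 to -0.01). Slc6a15 stood at 211 and 118 CPM (0.83, 0.33 to 1.30).

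In the dividing label Prolif. PT (81 nuclei), 3 of 30 members were 2-fold or more higher than in S1 to S3 and 9 lower (2 and 6 with an interval clear of 0), where 9.32% of all genes were higher and 10.7% lower. The heavy chain gene Slc3a2 was at 125 CPM in Prolif. PT and 40.0 CPM in S1 to S3 (log2 1.64, 0.98 to 2.25), and Slc7a1 had 13 and 57 counts (1.76, 0.77 to 2.65). Slc3a1 was at 18.5 and 141 CPM (-2.94), Slc1a1 at 18.5 and 63.0 CPM (-1.77), Slc6a15 at 50.8 and 118 CPM (-1.22), Slc6a6 at 129 and 295 CPM (-1.19) and Slc7a7 at 41.5 and 88.4 CPM (-1.09), and Slc7a12 had 1 and 263 counts (-4.14, -9.45 to -1.65). Dividing nuclei thus had more Slc7a1 and Slc3a2 and less of the 6 other members named here. The share of members that were higher was near that of all genes.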

How the data were processed

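Per the labels' protocols, whole cells or nuclei of mouse kidney were run by Drop-seq, sNucDrop-seq, DroNc-seq or 10x. Reads were aligned with STAR 2.5.3a to mm10, per the submitters' processing notes. The authors deposited UMI counts per gene and barcode, with a cell class for each barcode; whether counting used strand or introns is not stated in the labels. The lowest total of a counted gene is 6 in DroNc-seq, 4 in healthy 10x and 1 elsewhere, so a gene at 0 in those 2 libraries may have been filtered out.

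Within a library, counts of all barcodes of a class or label were added up and divided by that sum's total (CPM). Poisson intervals are exact; ratios carry exact conditional binomial 95% intervals (scipy 1.17.1). A sum of 0 was set at 3 counts, and such a ratio is a bound. For place, classes with 40 or more barcodes were ranked. No doublet caller was run; leaving out barcodes above 3 class medians of UMIs is among the alternatives, with TMM factors from edgeR 4.0.16. On simulated counts for UUO against healthy 10x in PT (11461 genes), 58% of 100 genes changed 2-fold and 100% of 100 changed 4-fold passed 2-fold. The members and gene lists were chosen with earlier results of these data known. Genes named with values are members 2-fold or more apart with 20 counts and an interval clear of 0, and for place members with 100 or more counts in the healthy libraries; other members are named with counts or ranges, and listed genes outside the families only where 2-fold apart or among the 2 highest of a list. Slc7a13, Slc6a15, Slc38a2, Slc38a10, Slc3a2, Slc7a7 and Slc7a9 are also given values where they were not 2-fold apart, chosen after their values were seen. Values of 1 member and of some listed genes are not reported here.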

Additional observations from a re-analysis of the deposited data

Results flagged for a closer look

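Slc38a9, which encodes a lysosomal arginine sensor of mTORC1, moved in opposite directions in 2 classes of UUO against healthy 10x, with both intervals clear of 0. In EC it was at 118 CPM in UUO (30 counts in 25 nuclei) and 18.5 CPM in healthy 10x (1 count), a log2 ratio of 2.68 (0.09 to 8.03). In DCT it was at 64.8 CPM in UUO and 153 CPM in healthy 10x, a log2 ratio of -1.24 (-1.93 to -0.55). The difference between the classes was not tested. In EC of sNucDrop-seq and DroNc-seq Slc38a9 was at 122 and 123 CPM, and the ratios against them were -0.05 and -0.05. In DCT the ratios against them were -1.64 and -0.79.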

How the results depend on the processing

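No paired analysis was possible because each group is 1 library. The number of members highest in PT, 16, stayed within 1.5 times under each setting run, from 13 with sNucDrop-seq alone to 17 with the mean of CPM over barcodes. Which members these were differed between single libraries. In PT, UUO over healthy 10x, the 3 members 2-fold higher became 0 with a minimum of 100 counts, 5 with sNucDrop-seq and 7 with DroNc-seq as the healthy side, 5 within S1-S2 labels and 1 within S3 labels; the median of -0.90 became -1.68 with the minimum of 100. Outside PT, the 11 pairs of member and class 2-fold higher became 20 with a minimum of 1 count, 0 with 100 and 7 in barcodes with 1000 or more UMIs, and the 29 lower became 101, 6 with those minimums, 75 with sNucDrop-seq and 77 with DroNc-seq. In Dediff. PT, the 4 higher became 8 with a minimum of 1, 0 with 100 and 2 with 1000 or more UMIs, and the 5 lower became 2 with 100, so the higher outnumbered the lower with the minimum of 1. The minimums change how many members enter; otherwise the cause was not tested.

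For S3 over S1-S2, the 2 members higher in every library became 4 with Drop-seq alone and 6 with each nucleus library alone (with 5 lower in sNucDrop-seq), and 4 without Drop-seq (chosen after seeing the data); the 4 lower became 2 with the mean of CPM over barcodes. Of 17 members called in PT, Slc6a6 and Slc6a17 changed sign with DroNc-seq, and these and Slc7a12 with sNucDrop-seq. Median-of-ratios and TMM scaling added 0.19 and 0.17 to log2 ratios in PT. Counts of 1 to 20 limit Slc38a3, Slc38a11, Slc6a4 and most members in Pod and EC.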
